A study of Mus musculus with 6 samples.

Results

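The genes described here are 7 genes of DNA methylation: the writers Dnmt1, Dnmt3a and Dnmt3b, the erasers Tet1, Tet2 and Tet3, and the reader Mbd2. They were chosen by name, as the rows of the count table with these symbols, and make up 7 of its 32285 genes. Transcripts were counted nucleus by nucleus in droplets (snRNA-seq) from the forebrain of 3 WT mice and 3 Npc1-/- littermates at P16, postnatal day 16. The Npc1-/- mice carry the Npc1nih allele in the gene for a lysosomal cholesterol transporter, and all mice are F1 hybrids of BALB/cJ and C57BL6/J. The nuclei come from whole forebrain, so a class of nuclei pools several brain regions. Values are counts of unique molecular identifiers (UMIs) in 6 libraries, which the barcodes name only by a suffix from 1 to 6. No key from suffix to mouse was found in the sources used here, so genotype was not assigned, the genotypes were not compared, and no p-value is given.

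Methylation of cytosine in CpG dinucleotides is set and copied by DNA methyltransferases. Dnmt1 copies the pattern to the new strand after DNA replication, and Dnmt3a and Dnmt3b place methyl groups on unmethylated sites. The Tet enzymes oxidise 5-methylcytosine to 5-hydroxymethylcytosine and further forms, which base excision repair can replace with cytosine, and Mbd2 binds methylated CpG and brings the nucleosome remodelling and deacetylase complex, NuRD. Neurons are known for high 5-hydroxymethylcytosine and for methylation outside CpG, which is laid down by Dnmt3a in the first weeks after birth in mice.

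The promoters of these genes carry CpG themselves, the dinucleotide on which their products act. The RefSeq (GRCm38.p6) promoter set used here gave 10 windows for 6 of the 7 genes and held none for Mbd2. The 250 bases before the RefSeq start site held from 2 CpG in a Dnmt1 window to 51 at Tet2. The median was 6 over 32851 windows of the same length. Windows of the same gene differed, with 2, 7 and 26 CpG at Dnmt1 and 38, 40 and 15 at Dnmt3a. Of the 5 windows that overlap no annotated exon, those of Dnmt3a, Dnmt3b and Tet2 are shown. They let CpG density be compared between both de novo writers and the eraser with the densest window. The others, both of Dnmt1 with 2 and 7 CpG, are not shown, and 18.8% and 53.7% of all windows held fewer. By the GENCODE gene positions given below, the shown windows of Dnmt3a and Tet2 lie inside the gene. Each window shown runs 5′ to 3′ on the strand of the gene, with every CpG in capitals.
Dnmt3a, chr12:3806730-3806979, plus strand, 38 CpG: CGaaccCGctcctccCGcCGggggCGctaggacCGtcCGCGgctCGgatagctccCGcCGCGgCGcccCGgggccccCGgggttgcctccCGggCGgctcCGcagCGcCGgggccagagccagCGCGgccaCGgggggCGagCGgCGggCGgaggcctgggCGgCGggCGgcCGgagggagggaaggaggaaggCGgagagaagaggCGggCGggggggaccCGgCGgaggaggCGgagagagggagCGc
Dnmt3b, chr2:153649199-153649448, plus strand, 21 CpG: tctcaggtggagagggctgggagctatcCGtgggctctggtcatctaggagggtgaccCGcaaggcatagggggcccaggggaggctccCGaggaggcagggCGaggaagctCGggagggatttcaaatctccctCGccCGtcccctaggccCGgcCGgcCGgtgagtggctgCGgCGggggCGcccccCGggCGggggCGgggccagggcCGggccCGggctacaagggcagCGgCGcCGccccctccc
Tet2, chr3:133544391-133544640, minus strand, 51 CpG: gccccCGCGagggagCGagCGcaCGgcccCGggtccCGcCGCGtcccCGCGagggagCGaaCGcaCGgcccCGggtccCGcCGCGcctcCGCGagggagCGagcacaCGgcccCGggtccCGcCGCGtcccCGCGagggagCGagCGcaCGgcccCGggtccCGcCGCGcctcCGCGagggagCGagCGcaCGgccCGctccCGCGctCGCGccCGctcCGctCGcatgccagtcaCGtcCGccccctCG
Of all windows, 98.1% held fewer CpG than the one at Dnmt3a, 83.7% fewer than that at Dnmt3b and 99.9% fewer than that at Tet2. Methylation itself was not measured in these nuclei, so the density is a description of the sequence only.

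Nuclei were sorted into 17 classes by marker lists. A nucleus joined the class with the highest marker score if at least 3 of its markers had at least 2 times the expected count. The score of the second list also had to be lower by at least 0.3. The classes are therefore "like" the cell type named (excitatory neuron-like, astrocyte-like and so on), and the names are used below without that suffix. Of 75867 nuclei kept, 47905 were placed (63.1%), and between 34.9% and 40.4% of each library stayed outside the gates. Libraries held 8215 to 16109 nuclei and 51343653 to 107583300 UMIs, and 631 barcode sequences occurred in more than 1 library. Classes ranged from 13206 excitatory neurons to 144 border macrophages, and the median depth of a nucleus from 2437.5 UMIs in microglia to 10374 in subcortical glutamatergic neurons. In 15 of the 17 classes all gate markers were at least 2-fold above their mean in the other classes, with 5 of 9 reaching this in excitatory neurons and 9 of 10 in interneurons. The same markers placed the nuclei, so this describes the gate and is no check of it. Each class had 3 known genes kept out of its own gate list. All 3 were highest in their own class in 9 classes, 2 in 4 classes and 1 in 4. The last were interneurons, neuroblasts, OPCs and pericytes and smooth muscle. Ranbp3l, kept out for astrocytes, is a gate marker of fibroblasts, where it was highest, so that result was set by the gate. Sox10 was kept out for OPCs and for immature and mature oligodendrocytes, so it could be highest in only 1 of them. Pvalb, a gene of one interneuron type, stood at 12.9 CPM (UMIs per 1000000 UMIs) in interneurons and was highest in border macrophages, at 21.7. Camk2a, an excitatory neuron kinase kept out of the gate, reached 834 CPM in excitatory neurons and stood at 24.9% to 38.3% of that level in the non-neuronal classes. The other 2 excitatory neuron genes kept out of the gate, Rtn4r and Emx1, are rarer and stood at 36.8 and 8.19 CPM in excitatory neurons and at 7.16 to 18.9 and 2.94 to 5.87 CPM in the non-neuronal classes, with the highest values in pericytes and smooth muscle and in ependymal cells. Camk2a RNA was thus counted in every class, and the part of RNA from other cells in the ratios below was not tested.

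**Figure D1:**
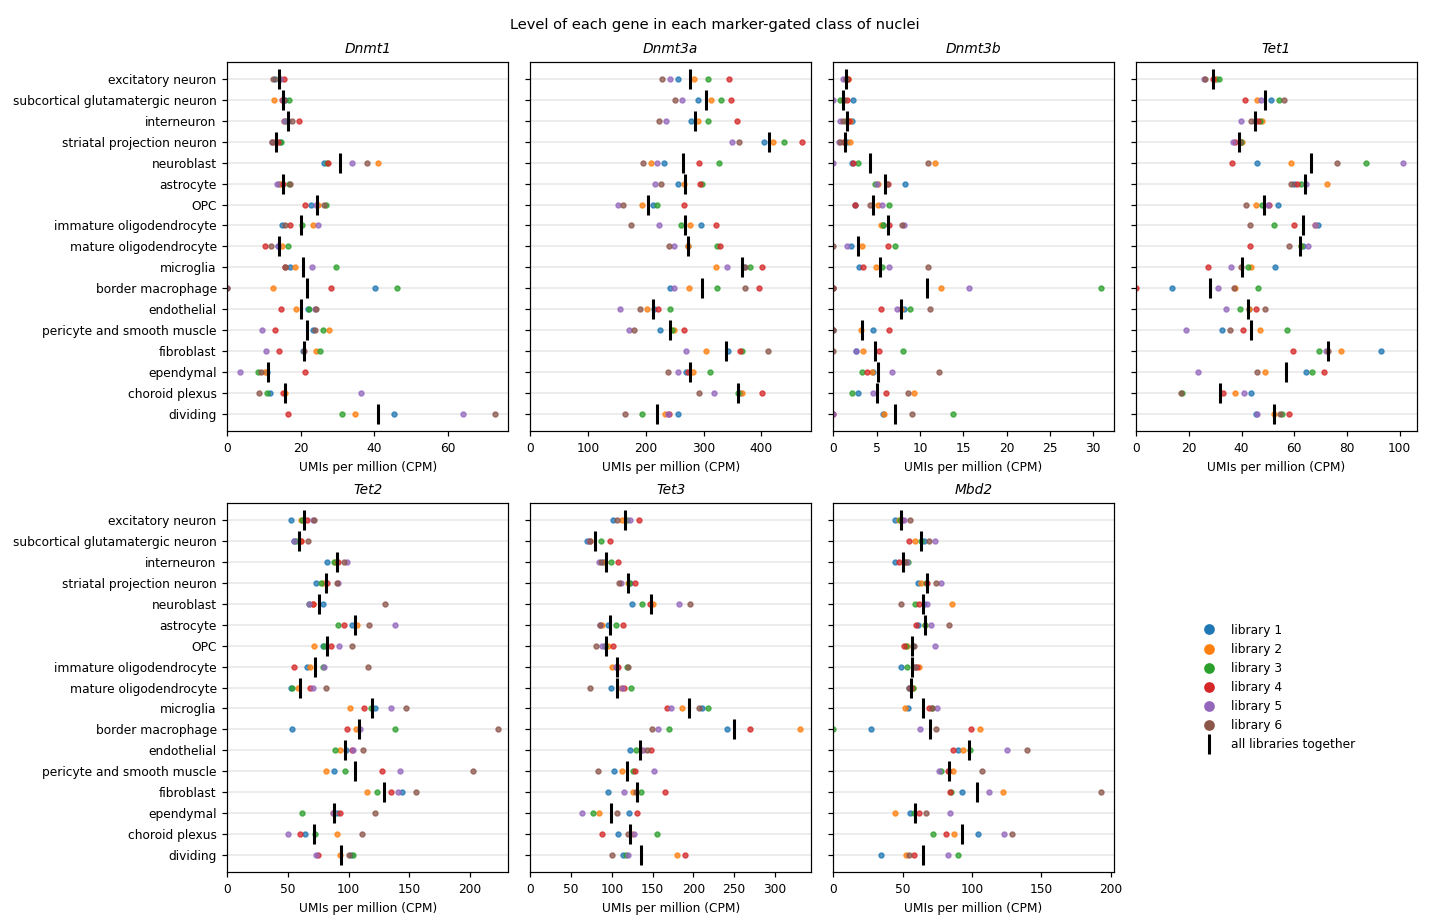
Level of each gene in CPM (horizontal axes, linear, each starting at 0) in 17 classes of nuclei, with 1 point per library and a black bar for all libraries together. Dnmt3b lies at or under 2.25 CPM in every library of the excitatory, subcortical glutamatergic, interneuron and striatal projection classes, Tet3 is highest in border macrophages and microglia, and Dnmt1 in dividing nuclei.

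To see how the genes differ with lineage and stage, 10 pairs of classes were compared by the ratio of CPM. A gene was counted as higher or lower if the ratio over all libraries was at least 1.5-fold and had the same direction in 6 of 6 libraries, and genes with under 100 UMIs in both classes together were left out. Intervals are 95% exact binomial and cover counting error only. In excitatory neurons over astrocytes, 3 of the 7 genes were lower and none higher, where 56.4% of 17361 genes passed in either direction, 15.0% higher and 41.3% lower. In interneurons over excitatory neurons, 1 of the 7 was higher against a background of 22.7% (14.4% higher, 8.33% lower). Striatal projection neurons over excitatory neurons gave 0 of 7 against 23.9% (12.5% higher, 11.4% lower). In neuroblasts over interneurons, 2 of the 6 genes with enough UMIs were higher against 15.6% (9.15% higher, 6.43% lower). Along the oligodendrocyte lineage the counts were 0 of 7 for immature oligodendrocytes over oligodendrocyte progenitor cells (OPCs, background 17.7%, with 7.19% higher and 10.5% lower), 0 of 6 for mature over immature oligodendrocytes (15.4%, with 7.85% higher and 7.57% lower) and 1 of 7, lower, for mature oligodendrocytes over OPCs (23.9%, with 10.2% higher and 13.7% lower). Dividing nuclei over OPCs gave 0 of 6 against 12.8% (7.06% higher, 5.76% lower). Microglia over astrocytes gave 1 higher and 1 lower of 7 against 30.4% (15.8% higher, 14.6% lower), and endothelial cells over astrocytes 1 lower of 7 against 33.4% (18.3% higher, 15.2% lower). Set against these backgrounds the counts do not set the 7 genes apart from other genes, so the differences below are described gene by gene. Dnmt3b was the gene left out for low counts, in neuroblasts over interneurons, mature over immature oligodendrocytes and dividing nuclei over OPCs.

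Scaling bears on these ratios and on the order of classes, which is given by CPM below and was not recomputed under other scalings. The median log2 ratio of all genes was -0.46 in excitatory neurons over astrocytes, and scaling by the trimmed mean of M values (TMM) raised every ratio of that pair by 0.48 on the log2 scale, median-of-ratios scaling by 0.47. In the other 9 pairs TMM moved ratios by between -0.26 and 0.07 and median-of-ratios by between -0.22 and 0.12. Under both scalings the 3 genes that passed in excitatory neurons over astrocytes became Dnmt3b and Tet1, lower, and Tet3, higher, with Tet2 no longer among them. Counted as UMIs per nucleus, 4 genes were higher in excitatory neurons, Dnmt1 at 1.17, Dnmt3a at 1.33, Tet3 at 1.53 and Mbd2 at 0.85, and only Dnmt3b was lower, at -0.68. Signs that changed with TMM or median-of-ratios scaling, none of them in a call, were those of Dnmt1 and Mbd2 in excitatory neurons over astrocytes, of Dnmt3a, Dnmt3b and Mbd2 in interneurons over excitatory neurons, of Tet3 in striatal projection neurons over excitatory neurons, of Tet1, Tet3 and Mbd2 in mature over immature oligodendrocytes, of Mbd2 in mature oligodendrocytes over OPCs, and of Dnmt3a, Tet1, Tet2 and Mbd2 in dividing nuclei over OPCs. Antisense genes in the table overlap Dnmt3a (Dnmt3aos), Dnmt3b (Dnmt3bos), Tet2 (Gm42567) and Tet3 (B230319C09Rik), and no source used here states if reads were counted by strand, so the values of these 4 genes are uncertain to that extent.

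**Figure D2:**
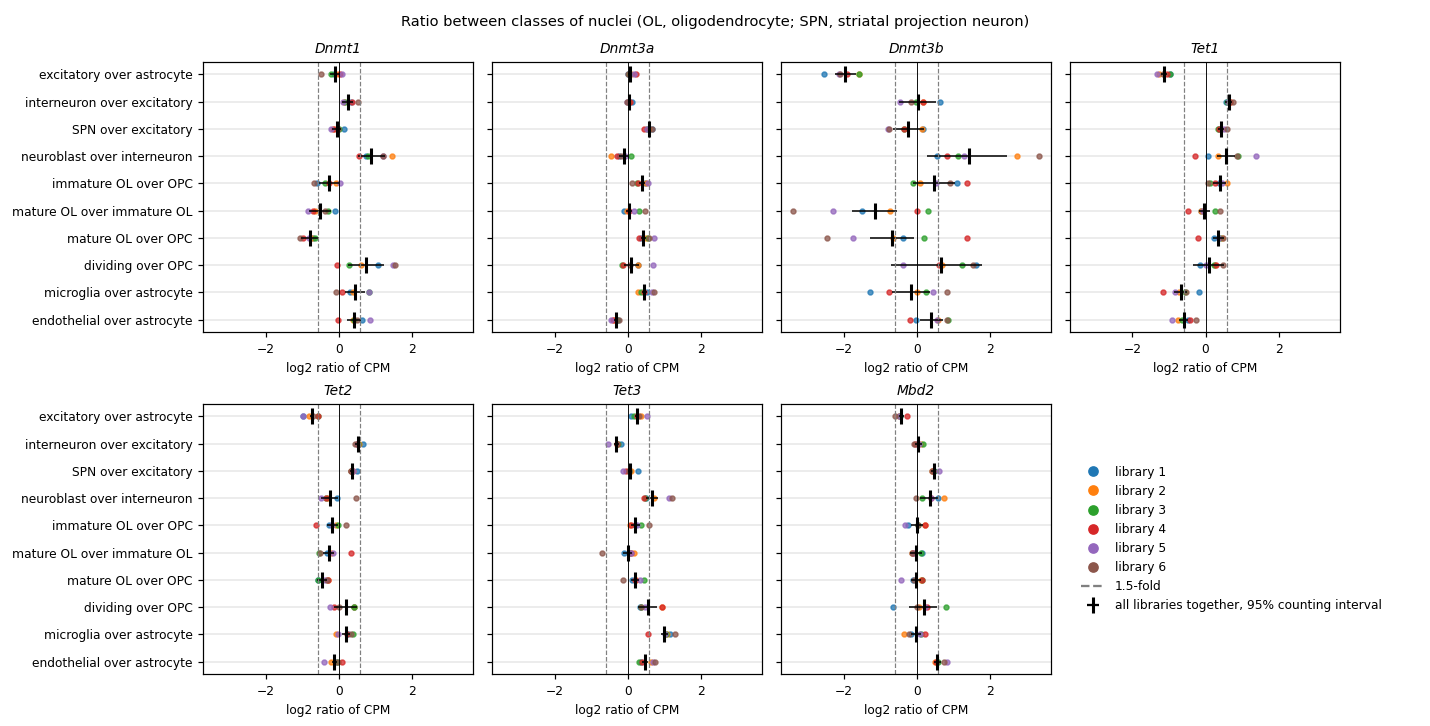
Log2 ratio of CPM for each gene in 10 pairs of classes, with 1 point per library, a black bar with its 95% counting interval for all libraries together, and dashed lines at 1.5-fold in either direction. All 6 libraries lie below the lower dashed line for Tet1 and Dnmt3b in excitatory neurons over astrocytes, while Tet3 in microglia over astrocytes has 5 libraries above 1 and library 4 at 0.56.

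Dnmt1 (chr9:20907209-20959888, minus strand), the maintenance methyltransferase, was counted with 8101 UMIs in all nuclei and had its highest levels in dividing nuclei, neuroblasts and OPCs. Dividing nuclei stood at 40.9 CPM (95% exact Poisson interval 29.2 to 55.7), with libraries from 16.5 to 72.8 and a median of 40.2, on 40 UMIs from 165 nuclei. Neuroblasts stood at 30.6 CPM (26.3 to 41.2 over libraries, median 30.6) and OPCs at 24.3 (21.1 to 26.8, median 24.5). Neighbours in this order did not differ beyond counting error. Along the whole order of 17 classes, from dividing to ependymal at 11.1 CPM, neighbours differed beyond counting error in 1 of 16 steps, endothelial over interneuron.

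Dnmt1 was lower in mature oligodendrocytes than in OPCs, at a log2 ratio of -0.79 (-1.05 to -0.53) that was negative in 6 of 6 libraries. Mature oligodendrocytes held 10.2 to 16.5 CPM (median 13.8), which lies below every library of the OPCs. Immature oligodendrocytes lay between, at 20.1 CPM (14.8 to 24.6, median 18.8), and overlapped both neighbours. The ratio was -0.25 as UMIs per nucleus and then not a call, and it was under 2-fold. Mature oligodendrocytes made up between 0.88% and 6.40% of the nuclei of a library, 93 to 910 nuclei, so their values over all libraries rest more on some libraries than on others. The call was also made by the median of the libraries and without each library in turn. Neither step alone passed, the first at -0.27 (-0.55 to 0.00) and the second at -0.52 (-0.82 to -0.21), although the second did without library 1. In neuroblasts over interneurons Dnmt1 was higher by 0.89 (0.51 to 1.25) in 6 of 6 libraries, 30.6 against 16.5 CPM, a call that was not made with the stricter or looser gate or after thinning.

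In dividing nuclei the log2 ratio of Dnmt1 over OPCs was at 0.75 (0.24 to 1.23), with 5 of 6 libraries higher and library 4 at -0.05, which is not a call. Without nuclei over 2 times the median depth it was 1.21 and not a call either. After each nucleus was thinned to 1500 UMIs, by 1 random draw, the log2 ratio was 1.93 and the gene passed. It also passed with the stricter and the looser gate. It was not a call under TMM, at 0.50, median-of-ratios scaling, at 0.60, or as UMIs per nucleus, at 1.33. At equal depth, 10.8% of 157 dividing nuclei held a Dnmt1 UMI (6.44% to 16.8%), against 3.13% of 3255 OPCs (2.56% to 3.79%) and 2.17% of 13152 excitatory neurons. Without thinning, the shares were 20%, 8.74% and 12.99%, at median depths of 3786, 3445.5 and 9024 UMIs. Of the 165 dividing nuclei, the marker list with the next highest score was neuroblast for 50 and OPC for 45.

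**Figure D3:**
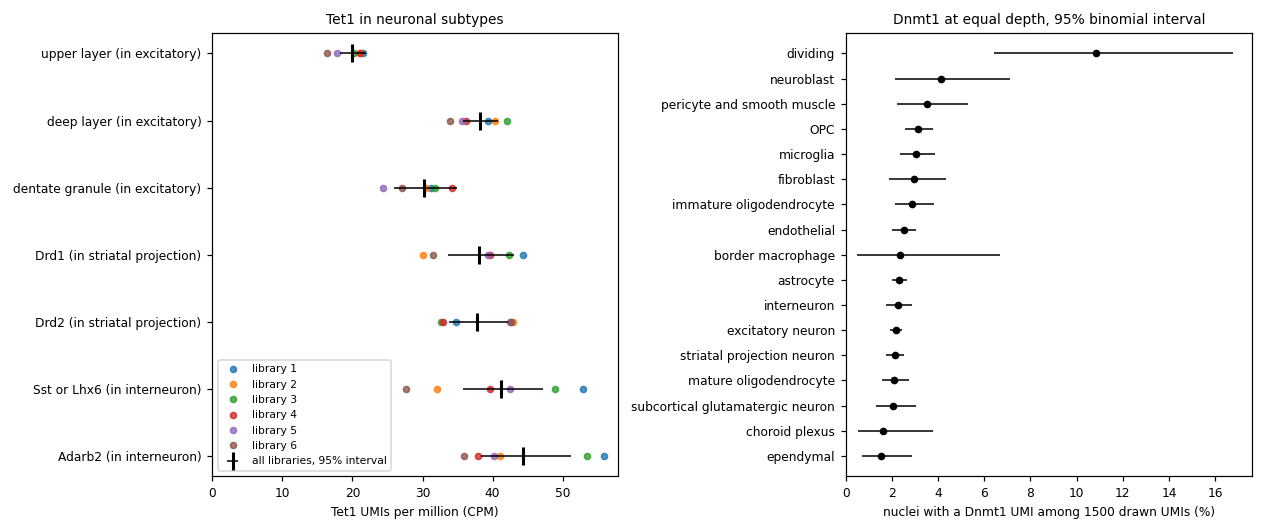
Left, Tet1 in CPM in neuronal subtypes, with 1 point per library and a black bar with its 95% Poisson interval. Right, share of nuclei with a Dnmt1 UMI after each was thinned to 1500 UMIs, with 95% binomial intervals. Upper-layer nuclei lie below all deep-layer libraries for Tet1, and the share for Dnmt1 is 10.8% in dividing nuclei and at most 4.12% in the other classes.

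Dnmt3a (chr12:3806007-3914443, plus strand), a de novo methyltransferase, was counted with 149467 UMIs and ranged 2.02-fold over the classes. Striatal projection neurons, the GABAergic output neurons of the striatum, were highest at 414 CPM (349 to 470 over libraries, median 413). By CPM, microglia followed at 367 (322 to 401, median 371), choroid plexus at 360.0 and fibroblasts at 339.5. As UMIs per nucleus, subcortical glutamatergic neurons held 3.58, striatal projection neurons 3.36 and excitatory neurons 2.86. Microglia held 1.14 on that scale, choroid plexus 2.09 and fibroblasts 1.42. OPCs were lowest at 205 (152 to 265, median 203), next to endothelial cells at 213. At equal depth a Dnmt3a UMI was found in 46.5% of striatal projection neurons, 33.7% of excitatory neurons, 32.0% of astrocytes and 24.9% of OPCs.

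The ratio of striatal projection to excitatory neurons was 0.58 (0.55 to 0.60) and positive in 6 of 6 libraries, just under the 1.5-fold limit of the rule. It passed with the stricter gate, after thinning, without the deepest nuclei, and without library 3 or 4. It fell to 0.47 under TMM, 0.52 under median-of-ratios scaling and 0.23 as UMIs per nucleus, none of them a call. Drd1 and Drd2 neurons, which form the direct and the indirect pathway, stood at 405 and 411 CPM, a log2 ratio of -0.02 (-0.09 to 0.05), and none of the 6 genes tested passed in this pair, where 2.77% of genes did. Interneurons and excitatory neurons were close, at 285 and 277 CPM. In the oligodendrocyte lineage the level was higher after the OPC stage in 6 of 6 libraries, by 0.39 (0.31 to 0.47) in immature and 0.42 (0.35 to 0.49) in mature oligodendrocytes, both under the limit. Microglia over astrocytes was at 0.45 (0.39 to 0.52), also in 6 of 6 libraries, and at 0.0079 as UMIs per nucleus.

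Dnmt3b (chr2:153649450-153687730, plus strand), the other de novo methyltransferase and best known from the early embryo, was rare, with 1370 UMIs in all nuclei. Mature neurons were the classes with the lowest levels: 1.17 CPM in subcortical glutamatergic neurons, 1.30 in striatal projection neurons, 1.52 in excitatory neurons and 1.57 in interneurons. The other 13 classes lay between 2.85 CPM in mature oligodendrocytes and 10.8 in border macrophages, the latter on 5 UMIs. Endothelial cells held 7.80 CPM (5.48 to 11.1 over libraries, median 8.002), immature oligodendrocytes 6.29 (5.53 to 8.21, median 6.08) and astrocytes 5.91 (4.84 to 8.31, median 5.73). Every library of these 3 classes lay above every library of the 4 neuronal classes.

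Against astrocytes, Dnmt3b was lower in excitatory neurons by 3.89-fold, a log2 ratio of -1.96 (-2.24 to -1.67), on 207 UMIs in each class. All 6 libraries lay on the same side, from -2.55 to -1.57 with a median of -2.003. Under TMM the value was -1.48, and per nucleus it was -0.68. At equal depth 0.251% of excitatory neurons (0.173% to 0.352%) and 0.822% of astrocytes (0.636% to 1.04%) held a Dnmt3b UMI, and the thinned ratio of -1.71 was not a call. Camk2a in astrocytes stood at 35.4% of its level in excitatory neurons, and the part of RNA from other cells in the Dnmt3b levels was not tested.

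Tet1 (chr10:62804570-62908996, minus strand), a 5-methylcytosine oxidase, was counted with 21389 UMIs and passed in 4 of the 10 pairs. Excitatory neurons held 29.1 CPM (25.9 to 31.6 over libraries, median 29.6), next to border macrophages, the lowest class, at 28.2 on 13 UMIs. Astrocytes stood at 64.1 (58.6 to 72.5, median 61.8), immature oligodendrocytes at 63.4 and mature oligodendrocytes at 62.1, with fibroblasts highest at 72.9. No library of the excitatory neurons reached the lowest library of the astrocytes. The log2 ratio was -1.14 (-1.22 to -1.07), 2.21-fold, in 6 of 6 libraries, and -0.67 under median-of-ratios scaling. Per nucleus it turned to 0.14, with 0.299 Tet1 UMIs in an excitatory nucleus and 0.272 in an astrocyte, whose median depths were 9024 and 3573 UMIs.

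Among neurons, Tet1 was higher in interneurons than in excitatory neurons by 0.64 (0.54 to 0.73), at 45.2 against 29.1 CPM, in 6 of 6 libraries, with library values from 0.57 to 0.74. The interneuron libraries, at 39.8 to 47.8 CPM, did not overlap those of the excitatory neurons. This call was not made after TMM or median-of-ratios scaling, thinning, or per nucleus. Striatal projection neurons lay between, at 39.0 CPM, and over excitatory neurons the ratio was 0.42 (0.34 to 0.50) in 6 of 6 libraries, under the limit.

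The excitatory neurons were not uniform. Upper-layer nuclei held 19.99 CPM of Tet1 (16.3 to 21.5 over libraries, median 20.6) and deep-layer nuclei 38.3 (33.9 to 42.1, median 37.8), so that the groups did not overlap. The log2 ratio was -0.94 (-1.10 to -0.77) in 6 of 6 libraries, where 14.8% of 13376 genes passed the same rule. Dentate granule nuclei, from the hippocampus, lay at 30.2 CPM (24.3 to 34.2, median 30.8) and were higher than the upper layers by 0.59 (0.34 to 0.85) in 6 of 6 libraries, where 9.1% of genes passed. Over the deep layers they lay at -0.34 (-0.58 to -0.11), which is not a call, where 11.4% of genes passed. No other of the genes tested passed in these pairs, and for Dnmt3a the value of upper over deep layers was -0.12 (-0.17 to -0.07). Drd1 and Drd2 neurons held 38.1 and 37.8 CPM of Tet1, a log2 ratio of 0.01 (-0.23 to 0.25). The subtype ratios were not recomputed under other scalings.

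Tet1 was also lower than in astrocytes in microglia, at a log2 ratio of -0.68 (-0.86 to -0.50), and in endothelial cells, at -0.60 (-0.72 to -0.48), in 6 of 6 libraries each. Microglia held 40.1 CPM (27.2 to 52.9 over libraries, median 41.2) and endothelial cells 42.3 (34.0 to 49.1, median 42.8), and all libraries of both lay below the lowest astrocyte library. The first of these was not a call without library 4 or after thinning, and the second was not a call with the looser gate, by the median of the libraries, as UMIs per nucleus (-0.31), or without library 2, 3 or 5.

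Tet2 (chr3:133463679-133545139, minus strand), the second oxidase, lacks the DNA-binding CXXC domain of its relatives and is known for its role in blood cells. It was counted with 38267 UMIs and ranged 2.20-fold, from 129 CPM in fibroblasts and 119 in microglia (101 to 148 over libraries, median 120.3) to 59.6 in mature oligodendrocytes and 58.8 in subcortical glutamatergic neurons. None of the 16 steps between neighbours in this order exceeded counting error. Excitatory neurons held 63.3 CPM (52.3 to 71.8, median 63.6) and astrocytes 105 (91.1 to 139, median 105), without overlap. The ratio was -0.73 (-0.79 to -0.68) in 6 of 6 libraries, -0.26 under TMM and median-of-ratios scaling, which is not a call, and 0.54 per nucleus.

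Interneurons held more Tet2 than excitatory neurons in 6 of 6 libraries, at 90.3 against 63.3 CPM, a ratio of 0.51 (0.44 to 0.58) under the limit. Within the interneurons, the Sst or Lhx6 nuclei, which derive from the medial ganglionic eminence, stood at 109.8 CPM (99.9 to 127 over libraries, median 107) and the Adarb2 nuclei, which derive from the caudal one, at 79.0 (64.5 to 93.8, median 80.9). These groups did not overlap and differed by 0.47 (0.28 to 0.67) in 6 of 6 libraries, also under the limit, where 12.2% of genes passed. In mature oligodendrocytes over OPCs Tet2 was at -0.46 (-0.59 to -0.33), negative in 6 of 6 libraries but under the limit, and as UMIs per nucleus the sign turned, to 0.08.

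Tet3 (chr6:83362373-83459084, minus strand), the third oxidase, which acts on the paternal genome after fertilisation, was counted with 56381 UMIs. It was highest in border macrophages at 249 CPM, on 115 UMIs, and in microglia at 194 (167 to 218 over libraries, median 196). The next class, neuroblasts, stood at 147. Each of these steps exceeded counting error, although border macrophages were above microglia in only 3 of 6 libraries. Astrocytes held 97.2 CPM (85.2 to 113, median 91.7), so no library overlapped with microglia. The log2 ratio of microglia over astrocytes was 1.00 (0.91 to 1.09) in 6 of 6 libraries, with library 4 lowest at 0.56 and library 6 highest at 1.28. At equal depth 26.4% of microglia (24.6% to 28.4%) and 12.8% of astrocytes (12.1% to 13.6%) held a Tet3 UMI, and the thinned ratio was 1.20. Per nucleus the gene was not called, with 0.606 UMIs in a microglial nucleus and 0.413 in an astrocyte.

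In neuroblasts over interneurons Tet3 was higher by 0.66 (0.50 to 0.83) in 6 of 6 libraries, at 147 CPM (125 to 196, median 148) against 93.1 (84.3 to 108, median 90.2). The call was not made after TMM or median-of-ratios scaling, without the deepest nuclei, with the stricter or looser gate, after thinning, or as UMIs per nucleus. Interneurons over excitatory neurons had the other direction from Tet1 and Tet2, with a log2 ratio of -0.31 (-0.38 to -0.25) that was negative in 6 of 6 libraries, under the limit. Dividing nuclei were above OPCs by 0.55 (0.28 to 0.81) in 6 of 6 libraries, also under the limit.

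Mbd2, on chromosome 18, was counted with 29130 UMIs and ranged 2.12-fold. Fibroblasts held 104 CPM (84.2 to 193 over libraries, median 102), endothelial cells 97.6 (86.4 to 140, median 95.9), choroid plexus 92.6 and pericytes and smooth muscle 83.1. By CPM these 4 vascular, meningeal and epithelial classes filled the first 4 places, and neighbours among them did not differ beyond counting error. As UMIs per nucleus, subcortical glutamatergic neurons held 0.744, striatal projection neurons 0.548 and excitatory neurons 0.504. On that scale choroid plexus held 0.537, endothelial cells 0.506, fibroblasts 0.434 and pericytes and smooth muscle 0.307. Interneurons at 50.5 and excitatory neurons at 48.9 (44.3 to 55.2, median 48.9) were lowest by CPM. Endothelial cells were above astrocytes by 0.57 (0.48 to 0.66) in 6 of 6 libraries, just under the limit, and passed with the stricter gate and without library 2. Striatal projection neurons were above excitatory neurons by 0.46 (0.40 to 0.52), also in 6 of 6 libraries. Excitatory neurons over astrocytes was at -0.43 (-0.50 to -0.36) in CPM and changed sign to 0.05 under TMM, as did Dnmt1, from -0.11 to 0.37. Mature oligodendrocytes were uniform, with libraries between 54.4 and 57.7 CPM.

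The libraries differed for some of the genes in the same way in most classes. Over all nuclei, Dnmt3a ranged from 252 CPM in library 6 and 258 in library 5 to 354 in library 4, a ratio of 1.40, and Dnmt1 from 15.4 to 17.3, a ratio of 1.12. Within the 12 classes that have at least 50 nuclei in every library, library 4 was above the median of the class for Dnmt3a in 12 and library 5 in 0. For Tet2, library 6 was above the median in 12 of 12 classes and highest in 9. For Tet3, library 4 was highest in 9 of 12, and for Mbd2 libraries 5 and 6 were above the median in 10 and 11. With each of the 12 classes given equal weight, so that the mix of classes is the same in every library, the ratio of the highest to the lowest library was 1.35 for Dnmt3a, 1.34 for Mbd2, 1.31 for Tet2, 1.29 for Dnmt3b, 1.19 for Tet3 and 1.18 for Tet1 and Dnmt1. Classes of 1 library share their depth and free RNA and are not independent. Which mouse and genotype each library is cannot be told from the files, and the cause was not tested.

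**Figure D4:**
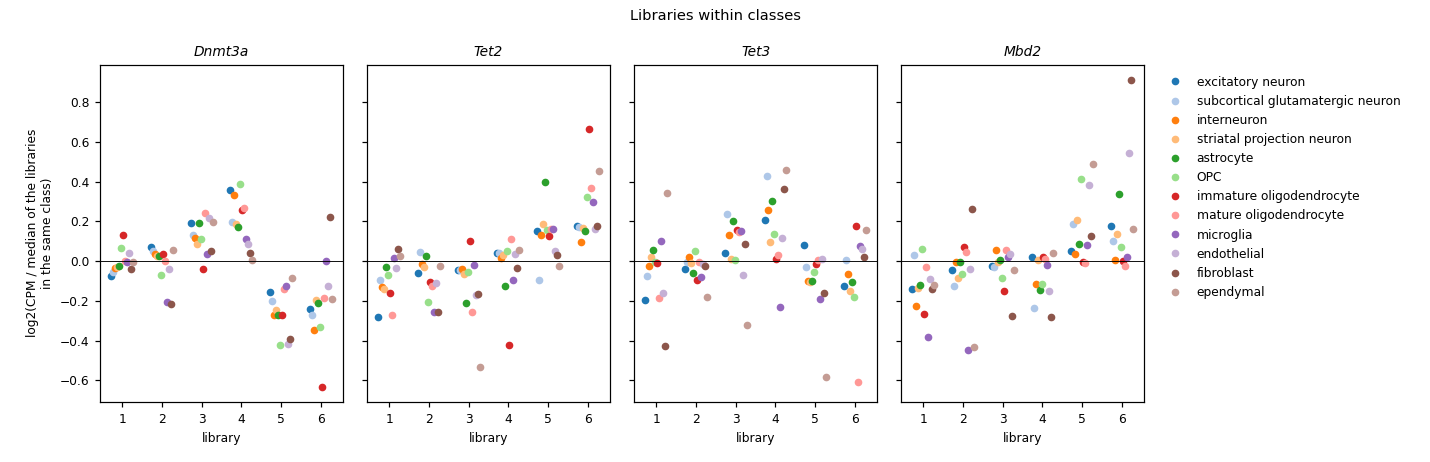
Log2 of the CPM of a library over the median of the 6 libraries in the same class (vertical axis) for each library (horizontal axis), with 1 point per class for 12 classes. Library 4 lies above 0 in all 12 classes and library 5 below 0 in all 12 for Dnmt3a, and library 6 lies above 0 in all 12 for Tet2.

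The remaining genes of the pathway were taken from lists, and the counts below use the same rule and backgrounds. Each list was also counted under TMM, median-of-ratios scaling and UMIs per nucleus, an alternative chosen after seeing the data. In excitatory neurons over astrocytes 41.3% of all genes were lower and 15.0% higher by CPM, which became 24.8% and 25.3% under TMM and 9.60% and 58.3% per nucleus. The counts of the lists in that pair are read beside these shares and moved with them. Of 7 partners of the methyltransferases, 5 had enough UMIs in dividing nuclei over OPCs and 3 of them were higher, where 7.06% of all 11452 genes were. Cdca7 and Hells, which together form a remodeller needed for methylation of packed DNA, stood at 71.6 against 6.87 CPM and 62.4 against 20.4 CPM. The third was Uhrf2, at 202 against 105 CPM, named after its value was seen, as is Uhrf1. The median of the list was 0.94 beside 0.11 over all 11452 genes. Uhrf1, which recruits Dnmt1 to newly copied DNA, had 77 UMIs in this pair and was left out by the rule, and its levels were 30.7 and 3.55 CPM. The marker list with the next highest score was neuroblast for 50 dividing nuclei and OPC for 45. Neuroblasts held 40.8 CPM of Cdca7, 19.5 of Hells, 147 of Uhrf2 and 3.40 of Uhrf1, and their part in these ratios was not tested. Hells was lower than in OPCs in immature oligodendrocytes, at a log2 ratio of -1.49 (-1.92 to -1.07), and in mature oligodendrocytes, at -1.27 (-1.59 to -0.96), in 6 of 6 libraries each, and the second was not a call per nucleus. Cdca7 was also higher in neuroblasts than in interneurons, at 40.8 against 8.60 CPM, and in interneurons than in excitatory neurons, at 8.60 against 0.926. It is also 1 of the 3 known neuroblast genes kept out of the gate above, so its call in neuroblasts was anticipated.

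The demethylation partners comprise 13 genes for base excision, for the supply of the Tet cofactor and for Tet recruitment. In excitatory neurons over astrocytes 5 were lower and none higher, with a median of -0.56 beside -0.46 for all genes and 41.3% of all genes lower. Under TMM and median-of-ratios scaling 3 of them, Gadd45g, Idh1 and Idh2, were still lower, Apex1 and Cxxc5 were not calls, and Cxxc4 was higher. Per nucleus the same 3 were lower and 7 were higher, Tdg, Smug1, Gadd45b, Ogt, Cxxc4, Neil1 and Neil2. Idh2, a mitochondrial enzyme that makes the cofactor 2-oxoglutarate, was at 9.54 against 55.0 CPM, and Gadd45g, a stress gene linked to demethylation, at 5.18 against 29.7. Idh2 was higher in interneurons than in excitatory neurons, at 25.2 CPM. Idh1, its cytosolic counterpart, was higher in immature oligodendrocytes than in OPCs, at a log2 ratio of 1.06 (0.85 to 1.28), and lower again in mature oligodendrocytes, at -0.71 (-0.90 to -0.51), which was not a call per nucleus. Cxxc5, a CpG-binding protein that interacts with Tet2, took the opposite course, at 29.8 CPM in OPCs, 18.9 in immature and 60.8 in mature oligodendrocytes, although the first step was not a call under median-of-ratios scaling or per nucleus. In endothelial cells over astrocytes Gadd45b was higher, at 1.60 (1.31 to 1.89), and Gadd45g lower, at -1.44 (-1.66 to -1.23).

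The list called other methyl-CpG readers holds 9 genes. Not all of them, Mbd3, Mbd5 and Mbd6 for example, are known to bind methylated CpG selectively. Few of the 9 passed. In excitatory neurons over astrocytes Mbd3 and Zbtb33, the gene for Kaiso, were lower, at log2 ratios of -0.97 and -1.34, and the median of the list was -0.40. That is 2 of 9, where 41.3% of all genes were lower. Mbd3 was not a call under TMM, at -0.49, or median-of-ratios scaling, at -0.50, where Zbtb33 was still lower and Mbd5 and Zbtb38 were higher. Per nucleus no gene of this list was lower, and Mbd1, Mbd4, Mbd5, Mbd6, Zbtb4 and Zbtb38 were higher. Zbtb38 was higher in endothelial cells than in astrocytes, at 140 against 63.3 CPM, and in mature than in immature oligodendrocytes, at 72.4 against 45.6. Mbd4, a glycosylase, was lower in interneurons than in excitatory neurons, at -0.70 (-0.92 to -0.47). In striatal projection over excitatory neurons, neuroblasts over interneurons, immature or mature oligodendrocytes over OPCs, and microglia over astrocytes no gene of this list passed by CPM. Under TMM and median-of-ratios scaling Zbtb38 was lower in neuroblasts, and per nucleus Mbd4 was lower in striatal projection neurons and Mbd5, Mbd6 and Zbtb38 were higher in mature oligodendrocytes than in OPCs.

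A list of 13 subunits was taken for NuRD, the complex that Mbd2 binds, and Mbd2 and Mbd3 are not in it. Chd5, the neuronal remodeller of the family, was higher in excitatory neurons than in astrocytes, at 86.9 against 38.8 CPM, while 5 other subunits were lower, with Gatad2a at 12.9 against 28.6. That is 5 of 13, where 41.3% of all genes were lower. Under TMM and median-of-ratios scaling 2 were lower, Chd4 and Gatad2a, and 2 higher, Chd5 and Mta3. Per nucleus 9 were higher, Chd5 among them, and none lower. By CPM the Chd5 level was not shared by all neuronal classes. Interneurons held 99.5 CPM and neuroblasts 61.2. Striatal projection neurons held 52.8 and subcortical glutamatergic neurons 47.2, above astrocytes but below OPCs at 57.1 and ependymal cells at 60.0. Against excitatory neurons, Chd5 in striatal projection neurons was called lower, at -0.72, and stayed so under TMM, median-of-ratios scaling and per nucleus. Chd3 was at 151 CPM in OPCs, 456 in immature oligodendrocytes and 138 in mature oligodendrocytes, with log2 ratios of 1.60 (1.52 to 1.68) and then -1.73 (-1.80 to -1.65), in 6 of 6 libraries at each step. Mta3 was higher in mature than in immature oligodendrocytes, at 202 against 99.2 CPM. Chd3 and Hdac2 were higher in neuroblasts than in interneurons, by 0.99 and 0.82, and Hdac2 was not a call under TMM, at 0.58, or per nucleus. Gatad2a, the subunit that links the Mbd protein to the remodeller, was higher in endothelial cells than in astrocytes by 1.59 (1.48 to 1.71).

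In the methyl donor cycle, 11 genes that make and recycle S-adenosylmethionine, 5 of 10 tested were lower in excitatory neurons over astrocytes, where 41.3% of all genes were lower. Under TMM and median-of-ratios scaling 2 were lower, Mat2a and Ahcyl1. Per nucleus none was lower, and Mat2b, Ahcyl2, Mtr and Shmt2 were among those higher. Mat2a, which makes S-adenosylmethionine, was at 98.5 against 247 CPM, and Ahcyl1, related to the enzyme that clears its product, at 112 against 365. Mat2a was higher in mature oligodendrocytes, at 309 CPM, than in immature oligodendrocytes at 160 or OPCs at 153. Shmt1, a folate enzyme, was at 19.1 CPM in immature oligodendrocytes, 5.21 in OPCs and 3.72 in mature oligodendrocytes. Mtr, methionine synthase, was higher in microglia than in astrocytes by 1.44 (1.31 to 1.58). By CPM no gene of this list passed in interneurons over excitatory neurons, where 22.7% of all genes did, or in striatal projection neurons over excitatory neurons, where 23.9% did. Mat2b was lower in interneurons under TMM, median-of-ratios scaling and per nucleus.

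The genes with the most similar course over the 17 classes were sought among 13230 genes by Pearson's r of log2(CPM + 1). For Dnmt1 these were Cenpt, a centromere protein, Ptbp2 and Ube2j2, at r of 0.91, 0.91 and 0.89, and Cenpt too was highest in dividing nuclei. For Tet3 they were Grb2, an adaptor of receptor signalling, Cd84, an immune cell receptor, and Nipa2, at 0.93, 0.90 and 0.90, all highest in border macrophages. Mbd2 was most like Ogfr, Cgnl1 and Arhgef5, at 0.90, 0.89 and 0.89, and Tet2 most like Cdk8, Vamp4 and Peli2, at 0.88, 0.85 and 0.84. Dnmt3b, rare as it is, gave Cbfb, Mrpl18 and Elf2 at 0.93, 0.93 and 0.92. Tet1 gave 3300002I08Rik, Zc3h7b and Sec11a at 0.85, 0.81 and 0.79, and Dnmt3a had the least similar companions, Akap8l, Gm39326 and Pptc7, all at 0.73. In the libraries taken singly, over 12 classes, r ranged from 0.80 to 0.94 for Tet2 with Cdk8 and from 0.13 to 0.70 for Dnmt1 with Cenpt. In at least 1 library r was below 0 for Dnmt3a with Gm39326 (lowest -0.35), Dnmt1 with Ube2j2 (-0.07) and Tet1 with Sec11a (-0.04). Between the 7 genes themselves r lay between -0.46 for Dnmt1 with Dnmt3a and 0.57 for Dnmt3b with Tet3. The points share libraries and free RNA, and these values are descriptions without a test.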

How the data were processed

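Nuclei from the forebrain of 3 WT and 3 Npc1-/- mice were profiled in 6 libraries. The deposited matrix holds UMI counts, not normalized, of 32285 genes in 75878 barcodes, made by the authors with Cell Ranger (6.0.0 per the file headers, 2.1.1 per the submitters' processing notes); the study's methods name STARsolo and GRCm38 instead, so the exact pipeline is uncertain. Library totals were 51343653 to 107583300 UMIs. Nuclei with 10% or more mitochondrial UMIs (11) were left out. No doublet caller was run, and how many doublets the gate left in was not tested. No row maps a library to a mouse, so no genotype comparison or p-value was made.

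Each nucleus was scored on 17 marker lists, as the mean log2 of observed over expected UMIs with 0.5 added to both. Each log2 value was held between -1 and 4, and the expected counts were estimated anew from the gated classes in 3 rounds. The scoring rule was set after the data were seen. Subtypes needed 2 markers and a margin of 0.3, and most nuclei of a parent class joined none. Of 5764 striatal projection neurons, 757 were Drd1 and 1107 Drd2, at median depths of 8098 and 6635 UMIs. Of 2911 interneurons, 534 were Sst or Lhx6 and 545 Adarb2, at 9035 and 6878 UMIs. Of 13206 excitatory neurons, 2208 were upper-layer, 2265 deep-layer and 483 dentate granule. UMIs were summed by class and library and given as CPM. Intervals (95%, exact Poisson for levels, exact binomial for ratios and shares) cover counting error only, and library ratios add 0.5 counts. The members and lists were chosen with earlier results of these data known. All 7 genes are named, and for each of them the 3 genes with the highest Pearson's r. From each pathway list up to 2 genes per pair were eligible, those with the largest absolute log2 ratio among those that passed. Not every eligible gene is named, so a pair without a named gene can still hold calls. Gene positions are from GENCODE M21 on GRCm38. The rule for calls was tried on simulated Poisson counts only for excitatory neurons over astrocytes, without added variation between libraries. That run cannot speak for the smaller classes or for spread between libraries. Python 3.11.15, numpy 2.4.6, scipy 1.17.1 and pandas 2.3.3 were used, and edgeR 4.0.16 and DESeq2 1.42.0 only for TMM and median-of-ratios factors. Alternatives covered the gate, nuclei filters, thinning, scaling, pooling, the fold limit, low counts and leaving out each library. Of the reader and methyl donor lists, 1 gene each is not reported here.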

Additional observations from a re-analysis of the deposited data

Results flagged for a closer look

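Of 101 groups of 6 libraries (a gene in a class, with at least 5 UMIs in every library), 5 held a library whose gap to its nearest neighbour, divided by the whole range, exceeded Dixon's 95% critical value, and chance gives about 1 in 20. Tet1 in mature oligodendrocytes was 43.2 CPM in library 4, on 34 UMIs, against 57.9 to 65.3 in the others. Tet2 in neuroblasts was 130.5 CPM in library 6, on 24 UMIs, against 67.3 to 78.9. Mbd2 in OPCs was 73.6 CPM in library 5, on 131 UMIs, against 51.1 to 58.0. Mbd2 in pericytes and smooth muscle was 107 CPM in library 6, on 9 UMIs, against 75.9 to 86.2, and in fibroblasts 193 CPM in library 6, on 37 UMIs, against 84.2 to 122.5.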

How the results depend on the processing

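Between genotypes, no paired analysis was possible because the libraries carry no key to a mouse or a group. The direction of every call was read within each library, and that part is paired by library. The 1.5-fold limit was applied to counts summed over all libraries for each class, and that part is not paired. For Dnmt3a in mature oligodendrocytes over OPCs, the log2 ratio was 0.42 over all libraries together and 0.53 by the median of the libraries. Counts of the 7 genes that passed are given here where they moved. In excitatory neurons over astrocytes (3), thinning gave 2 (Tet1 and Tet2), the 2-fold limit 2 (Dnmt3b and Tet1) and UMIs per nucleus 5 (Dnmt1, Dnmt3a, Tet3 and Mbd2 higher, Dnmt3b lower), and the last turned Tet1 to 0.14 and Tet2 to 0.54. In interneurons over excitatory neurons (1), thinning, TMM, median-of-ratios, UMIs per nucleus and the 2-fold limit each gave 0. In striatal projection over excitatory neurons (0), the stricter gate, leaving out deep nuclei and thinning each gave 1, Dnmt3a, and leaving out a library 0 to 1 (1 without library 3 or 4). In neuroblasts over interneurons (2), the stricter gate, the looser gate, thinning and the 2-fold limit gave 0; leaving out deep nuclei, TMM, median-of-ratios and UMIs per nucleus gave 1, Dnmt1; leaving out a library gave 2 to 3. UMIs per nucleus gave 3 in immature oligodendrocytes over OPCs (0). In mature over immature oligodendrocytes (0), leaving out a library gave 0 to 1 (1 without library 1). In mature oligodendrocytes over OPCs (1, Dnmt1), UMIs per nucleus gave 3 (Dnmt3a, Tet1 and Tet3, not Dnmt1) and the 2-fold limit 0. In dividing nuclei over OPCs (0), the stricter gate, the looser gate and thinning gave 1, Dnmt1, UMIs per nucleus 4, and leaving out a library 0 to 1 (Tet3 without library 1 or 3, Dnmt1 without library 4). In microglia over astrocytes (2), thinning gave 1 (Tet3), UMIs per nucleus 1 (Tet1), the 2-fold limit 0, and leaving out a library 1 to 2 (1 without library 4). In endothelial cells over astrocytes (1, Tet1), the stricter gate gave 2, the looser gate 0, UMIs per nucleus 3 (Dnmt1, Tet3 and Mbd2, not Tet1), the median of the libraries 0, the 2-fold limit 0, and leaving out a library 0 to 1 (0 without library 3 or 5). The cause was not tested.

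Over all genes, the 2-fold limit lowered the calls to 2025 in interneurons over excitatory neurons, 2206 in striatal projection over excitatory neurons, 951 in neuroblasts over interneurons, 1203 in immature oligodendrocytes over OPCs, 1144 in mature over immature oligodendrocytes, 1879 in mature oligodendrocytes over OPCs, 869 in dividing nuclei over OPCs, 2747 in microglia over astrocytes and 3300 in endothelial cells over astrocytes, and the stricter gate to 1060 (from 1970) in neuroblasts over interneurons. Of the 70 log2 ratios, 10 moved beyond their counting interval with the stricter gate, 26 of 69 with thinning, 31 with TMM and, beside the 2 calls that changed sign, 52 with UMIs per nucleus, and 0 without nuclei whose barcode sequence occurs in another library, an alternative chosen after seeing the data. Rare genes are limited by depth: Dnmt3b rests on 1370 UMIs.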
